A study of Mus musculus with 6 samples.

Results

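The TWIK, TREK and THIK channels form 7 of the 49568 gene names with a value in these data. They were taken by name: Kcnk1 and Kcnk6 encode the TWIK channels, Kcnk2, Kcnk10 and Kcnk4 encode TREK1, TREK2 and TRAAK, and Kcnk13 and Kcnk12 encode THIK1 and THIK2. The RNA came from neurons of the preBötzinger complex (preBötC), the brainstem site that generates the rhythm of inspiration, in Dbx1CreERT2; Rosa26tdTomato mice at postnatal day 2. Every mouse, whichever group it gave, carried both alleles, and its dam had received tamoxifen during gestation, so that Cre switched on the red fluorescent protein tdTomato in cells born from progenitors that expressed Dbx1. The 3 Dbx1 samples held 15 tdTomato-positive neurons each, and the 3 non-Dbx1 samples held 15 neuronal somata each without visible tdTomato, drawn 1 by 1 into micropipettes and pooled. Each sample came from a different mouse. The non-Dbx1 group was defined by the absence of fluorescence alone, so it can mix several kinds of neuron and can hold Dbx1-derived cells that escaped recombination. Between 6464675 and 9432958 reads per sample fell on genes. Levels are RPKM, the reads on a gene divided by the length of its exons and scaled to the number of reads on genes in that sample.

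These genes belong to the tandem pore domain potassium channels, in which each subunit carries a pair of pore loops and a pair of subunits makes 1 pore. The channels are open at rest and let potassium leak out of the cell, which pulls the membrane potential towards the potassium equilibrium and lowers input resistance. In respiratory neurons such leak currents set the resting potential, against which sodium leak and persistent inward currents depolarise the cell. The subfamilies differ in what gates them: TREK and TRAAK channels respond to membrane stretch, heat and polyunsaturated fatty acids, TASK channels close in acid, and THIK channels are inhibited by halothane.

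The members are related but are spelled differently in DNA, which bears on whether reads can be told apart. Below is the coding DNA around the first pore loop of each, from GENCODE vM21 transcripts on GRCm38, 51 bases from 5′ to 3′ on the coding strand. Capitals mark the 15 bases that encode the potassium selectivity filter of that loop.

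Kcnk1: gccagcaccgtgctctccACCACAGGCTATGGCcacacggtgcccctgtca

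Kcnk6: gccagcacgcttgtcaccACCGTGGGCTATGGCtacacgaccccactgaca

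Kcnk2: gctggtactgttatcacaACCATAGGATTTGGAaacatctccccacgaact

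Kcnk10: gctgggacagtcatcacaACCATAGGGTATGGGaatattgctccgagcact

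Kcnk4: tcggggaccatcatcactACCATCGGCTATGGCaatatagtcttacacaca

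Kcnk13: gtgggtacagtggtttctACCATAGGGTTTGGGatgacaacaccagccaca

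Kcnk12: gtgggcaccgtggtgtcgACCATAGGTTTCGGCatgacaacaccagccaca

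In all 7 genes the window crossed an exon junction. For Kcnk1 it ran over exons 1 and 2, within chr8:125995790-126025037 on the plus strand. For Kcnk6 it ran over exons 1 and 2, within chr7:29225842-29232186 on the minus strand. For Kcnk2, Kcnk10 and Kcnk4, all on the minus strand, it ran over exons 3 and 4, within chr1:189258873-189295618, chr12:98490040-98496217 and chr19:6928129-6928306. For Kcnk13 it ran over exons 2 and 3, within chr12:99966256-100061027 on the plus strand, and for Kcnk12 over exons 1 and 2, within chr17:87746816-87797088 on the minus strand. The THIK pair was the most alike of the 21 pairs, with 7 mismatches in 51 bases. The TREK1 and TREK2 windows differed at 13 bases and the TWIK windows at 14. The farthest pair, Kcnk1 and Kcnk13, differed at 24.

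Over whole annotated transcripts, the longest stretch that any pair of members shared exactly was 26 bases, between Kcnk13 and Kcnk12, and the next was 25 bases, between Kcnk1 and Kcnk6. No member shared a word of 35 bases with another member. Overlap with unrelated genes was more extensive. Of the merged exon bases of Kcnk4, 13.2% also lay in exons of Catsperz, on the same strand. For Kcnk2 the share was 12.2%, with A430027H14Rik on the opposite strand, and for Kcnk1 it was 8.01%, with Gm45875, also on the opposite strand. Reads from the stretch shared with Catsperz cannot be assigned to a gene with certainty. The reads were counted without strand, so the same holds for the stretches shared on opposite strands. Kcnk6, Kcnk10, Kcnk13 and Kcnk12 shared no exon base with another gene. By sequence, 14.5% of the 35-base words of Kcnk4 also occurred in other genes, 1083 of them. The share was 10.2% for Kcnk2 (3 genes), 6.49% for Kcnk1 (1 gene) and 2.6% for Kcnk6 (318 genes). It was 0.35% for Kcnk10 (83 genes) and 0 for Kcnk13 and Kcnk12.

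TWIK1 and TRAAK were the most abundant of these channels in RPKM, THIK2, TREK2 and TREK1 were detected at levels that differed widely between samples, TWIK2 was near the detection floor and THIK1 was not detected in any sample. The floor was taken as 3 reads, a limit that covers counting error only, since the reads are not independent molecules.

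Kcnk1 (TWIK1; GRCm38 chr8:125995170-126030685), the founding member of the family and a weakly rectifying leak channel, was found in all 6 samples. Dbx1 replicates 1 to 3 gave an RPKM of 10.3, 4.39 and 11.0, against 5.55, 6.53 and 15.0 for non-Dbx1 replicates 1 to 3, the order used for all genes below. The lowest value was in Dbx1 replicate 2 and the highest in non-Dbx1 replicate 3, and the groups overlapped. RPKM measured 8.55 ± 3.63 for Dbx1 and 9.01 ± 5.17 for non-Dbx1 samples (mean ± SD, n = 3 each).

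Kcnk6 (TWIK2; chr7:29221926-29232515), a channel of endosomes and lysosomes as well as the cell surface, was close to absent. It had 0 reads in Dbx1 replicates 1 and 2, 1 read in Dbx1 replicate 3 and 0 reads in non-Dbx1 replicate 1. Non-Dbx1 replicates 2 and 3 had 22 and 9 reads, at RPKM of 0.526 and 0.195. A count of 3 reads corresponded to an RPKM between 0.0651 and 0.0949, so TWIK2 was above the floor in 2 samples, both non-Dbx1.

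Kcnk2 (TREK1; chr1:189207930-189402273), a channel opened by stretch, heat, arachidonic acid and volatile anaesthetics and closed by cyclic AMP signalling, was found in all 6 samples but over a 46.6-fold range. Dbx1 replicates gave an RPKM of 0.0737, 3.43 and 0.505, against 2.52, 0.137 and 1.56 for non-Dbx1 replicates. Dbx1 replicate 2 was the highest and Dbx1 replicate 1 the lowest of all 6, so the Dbx1 group spanned the whole range of the non-Dbx1 group.

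Kcnk10 (TREK2; chr12:98429437-98578310), the closest relative of TREK1, was present in some samples and not in others. Dbx1 replicates held 0, 9 and 145 reads, at RPKM of 0, 0.472 and 8.23. Non-Dbx1 replicates held 38, 110 and 0 reads, at RPKM of 2.32, 5.08 and 0. Each group therefore held 1 sample at 0, where up to 3 reads, or an RPKM between 0.126 and 0.183, would be compatible with the count.

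Kcnk4 (TRAAK; chr19:6923966-6934515), a stretch- and arachidonic acid-sensitive channel known from the nodes of myelinated axons, had the highest mean RPKM of the 7 genes. Dbx1 replicates gave an RPKM of 12.2, 8.83 and 15.9, against 2.44, 7.43 and 18.05 for non-Dbx1 replicates. The Dbx1 values all lay within the range of the non-Dbx1 group, whose replicate 1 was the lowest of all and replicate 3 the highest. RPKM measured 12.3 ± 3.55 for Dbx1 and 9.30 ± 7.97 for non-Dbx1 samples (mean ± SD, n = 3 each).

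Kcnk13 (THIK1; chr12:99964499-100062682), the halothane-inhibited channel best known as the main resting potassium conductance of microglia, had 0 reads in all 6 samples. With its merged exon length in GENCODE vM21, 3 reads would have been an RPKM between 0.102 and 0.149, and any level below that was not detectable at this depth.

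Kcnk12 (THIK2; chr17:87745801-87797994), a THIK subunit that carries little current by itself and is largely held inside the cell, had reads in all 6 samples. Dbx1 replicates gave an RPKM of 0.260, 10.9 and 4.31, against 3.52, 0.0604 and 1.64 for non-Dbx1 replicates. The lowest of these stood for 1 read and the highest for 159, and Dbx1 replicate 2 was the sample in which THIK2 exceeded every other member. The highest and lowest values differed 181-fold, wider than for any other member found in all 6 samples.

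**Figure D1:**
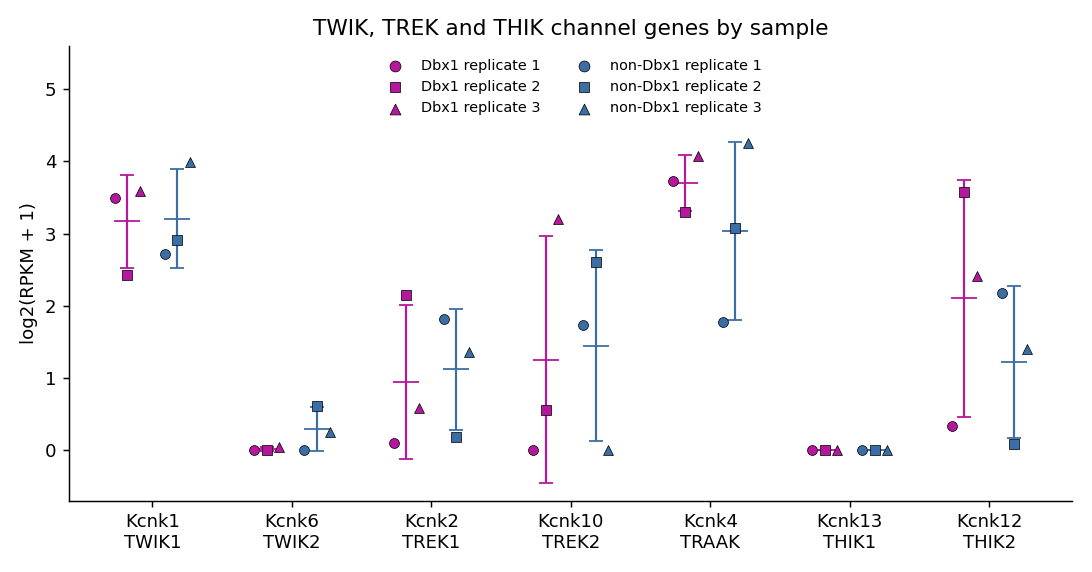
Level of each of the 7 channel genes as log2(RPKM + 1), with 1 point per sample, symbols for the replicates, and bars for the group mean ± SD (n = 3). Kcnk1 and Kcnk4 were detected in every sample, Kcnk13 was at 0 throughout, and for each gene the Dbx1 and non-Dbx1 points overlapped.

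The order of the levels was Kcnk4 (10.8 ± 5.76), Kcnk1 (8.78 ± 4.0), Kcnk12 (3.45 ± 4.03), Kcnk10 (2.68 ± 3.34), Kcnk2 (1.37 ± 1.38), Kcnk6 (0.125 ± 0.211) and Kcnk13 (0), as mean RPKM ± SD over the 6 samples. Of the 21 pairs of genes, 9 differed in level within samples (exact two-sided permutation test by sign changes over 6 samples, adjusted p = 0.0729 by Benjamini-Hochberg over the 21 pairs, threshold 0.1), all with the same gene higher in 6 of 6 samples. Kcnk1 was above Kcnk6, Kcnk2, Kcnk10 and Kcnk13 in all samples, and Kcnk4 was above Kcnk6, Kcnk10 and Kcnk13 in all samples. Kcnk2 and Kcnk12 each exceeded Kcnk13. The outcome of the 4 pairs with Kcnk13 was fixed by its being at 0, and over the 15 pairs of detected genes 5 differed (adjusted p = 0.0938 over those 15, exact permutation test). With 5 samples the smallest possible p is 0.0625, and the number of such pairs was 0 whichever sample was left out.

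No pair of neighbours in that order differed beyond its spread. Kcnk4 was above Kcnk1 in 5 of 6 samples, by 0.18 on the log2(RPKM + 1) scale (adjusted p = 0.553, exact permutation test), the exception being non-Dbx1 replicate 1. Kcnk1 was above Kcnk12 in 5 of 6 samples (adjusted p = 0.141, same exact test), Kcnk12 above Kcnk10 in 4 of 6 (adjusted p = 0.722) and Kcnk10 above Kcnk2 in 2 of 6 (adjusted p = 0.75). The last 2 steps, Kcnk2 to Kcnk6 and Kcnk6 to Kcnk13, had adjusted p of 0.141 and 0.292 by the same exact test.

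The place of TRAAK at the head of that order depended on the exon length by which reads were divided. The length recovered from the deposited values was 3148 bases for Kcnk1 and 1715 bases for Kcnk4, against merged exons of 2235 and 4465 bases in GENCODE vM21. Divided by the merged lengths, Kcnk1 came first at 12.4 ± 5.63 in units of RPKM, followed by Kcnk4 at 4.16 ± 2.21, Kcnk12 at 3.39 ± 3.96, Kcnk2 at 3.32 ± 3.35 and Kcnk10 at 0.774 ± 0.965 (mean ± SD over 6 samples). On that scale Kcnk1 exceeded Kcnk4 in 6 of 6 samples (adjusted p = 0.0729, exact permutation test) and no longer exceeded Kcnk2 beyond the spread (adjusted p = 0.151), so 8 of the 9 pairs were shared between the scales. Where the recovered lengths are those the reads were counted on, fewer exon bases of Kcnk4 and Kcnk10 were counted than GENCODE vM21 holds, and the merged length spreads their reads over bases that were not counted. The deposited scale has the opposite limit for other members. For Kcnk1 the recovered length equalled the summed length of distinct exons, which counts overlapping exons repeatedly. That of Kcnk2 was 11947 bases, against 9148 summed and 4943 merged. Where bases were counted repeatedly, RPKM understates the level of a gene. TWIK1 led on that scale in 5 of 6 samples. TRAAK, although second in the means, ranked 4 in Dbx1 replicate 2 and in non-Dbx1 replicate 1.

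The mixture of channels differed between samples of the same group. Kcnk4 was the most abundant member in 4 samples, Kcnk12 in Dbx1 replicate 2 and Kcnk1 in non-Dbx1 replicate 1. Kcnk1 and Kcnk4 together made up 98.5% of the summed RPKM of the 7 genes in Dbx1 replicate 1 and 90.7% in non-Dbx1 replicate 3, but 47.1% in Dbx1 replicate 2 and 48.9% in non-Dbx1 replicate 1. Both of those latter samples were rich in THIK2, which held 38.9% and 21.5% of the sum. TREK2 held 20.6% in Dbx1 replicate 3 and 25.7% in non-Dbx1 replicate 2. These shares rest on the same exon lengths. With merged lengths TREK2 held 8.06% and 10.1% in those samples, and TREK1 held 28.9% in Dbx1 replicate 2 and 32.2% in non-Dbx1 replicate 1, against 12.3% and 15.4% by RPKM. The sum itself came to 22.8, 28.03 and 39.99 for Dbx1 and 16.3, 19.8 and 36.4 for non-Dbx1 replicates, overlapping between the groups.

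**Figure D2:**
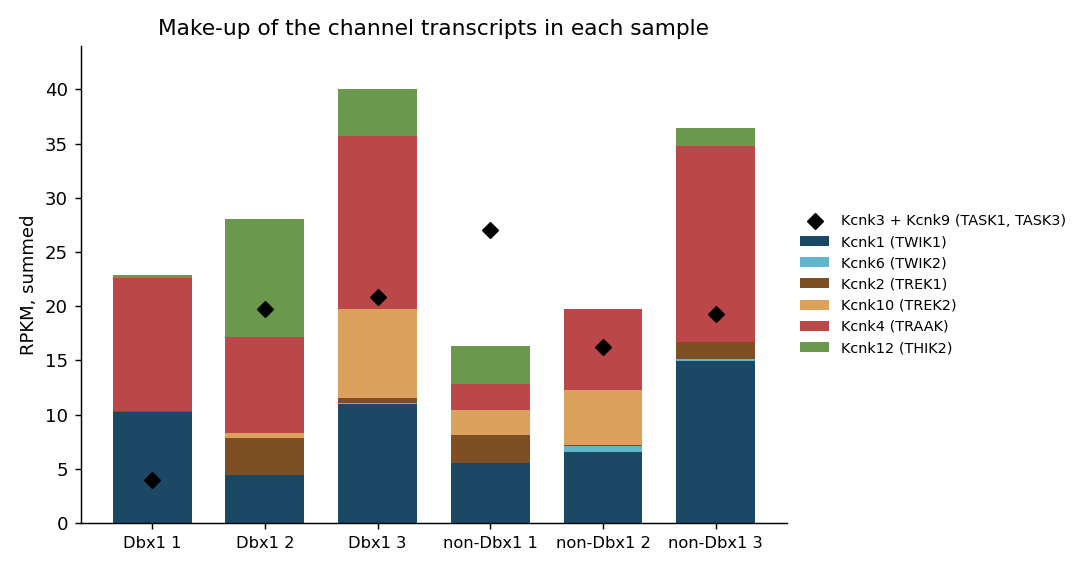
Summed RPKM of the channel genes in each sample, stacked by gene, with diamonds for the sum of Kcnk3 and Kcnk9 (TASK1 and TASK3). Kcnk1 and Kcnk4 filled 98.5% of the stack in Dbx1 replicate 1 and 47.1% in Dbx1 replicate 2, and the TASK sum was lowest, at 3.99, in Dbx1 replicate 1.

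This unevenness was compared with that of other genes of similar level. The SD of log2(RPKM + 1) within groups was 1.53 for Kcnk10 and 1.38 for Kcnk12, where the median among the 1000 tested genes nearest in mean level was 0.782 and 0.778. Of those 1000 genes, 91.9% varied less than Kcnk10 and 87.3% less than Kcnk12. The SD of Kcnk4 was 0.917 against a median of 0.542, with 84.6% of its neighbours varying less. Kcnk1, Kcnk2 and Kcnk6 lay nearer the middle, with 65.6%, 65.5% and 57.9% of their neighbours varying less. These shares describe the genes and carry no test.

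Whether Dbx1 and non-Dbx1 preBötC neurons differ in these leak channels was examined across all genes with limma on log2(RPKM + 1). L2FC is the difference of the group means on that scale, positive where Dbx1 samples were higher, and it understates the change of genes with low RPKM. Of the 17614 genes tested, those detected in at least 3 samples, 1 passed an FDR of 0.1, D930028M14Rik, higher in non-Dbx1 samples and named here after its value was seen. That is a background of 0.00568%, and it holds for this test only. The paper, which tested counts with DESeq2 at an FDR of 0.1, reported genes in both directions. Among them were Hif1a, higher in Dbx1 neurons, and Gata2, higher in non-Dbx1 neurons. At an unadjusted p under 0.05 there were 480 genes higher in Dbx1 samples (2.73% of those tested) and 436 higher in non-Dbx1 samples (2.48%), or 5.2% together.

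None of the channel genes passed. The filter admitted 6 of the 7, with Kcnk13 left out at 0, and 0 of these 6 had FDR under 0.1 or an unadjusted p under 0.05 by limma. Their FDR ran from 0.940 to 0.996. The L2FC was above 0 for Kcnk12 and Kcnk4 and below 0 for the other 4, with a median of −0.11 beside 0.01 over all genes tested. The largest was that of Kcnk12, at 0.88 ± 0.93 (SE; 95% interval −1.24 to 3.01). For Kcnk4 the L2FC was 0.67 ± 0.60 (95% interval −0.71 to 2.04).

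The other 4 estimates were smaller on this scale. For Kcnk1 the L2FC was −0.04 ± 0.50 (95% interval −1.18 to 1.11), and for Kcnk2 it was −0.17 ± 0.68 (95% interval −1.72 to 1.37). For Kcnk10 it was −0.19 ± 0.99, with a 95% interval from −2.44 to 2.06, although its mean RPKM was higher in Dbx1 samples (2.90 ± 4.62 against 2.47 ± 2.54, SD, n = 3 each), so its direction turned with the scale. For Kcnk6 it was −0.28 ± 0.20, with a 95% interval from −0.72 to 0.17. With a pseudocount of 0.1 in place of 1 the L2FC of Kcnk6 was −1.28 and that of Kcnk2 −0.49, neither past the threshold. The intervals of Kcnk1, Kcnk2, Kcnk10 and Kcnk12 included differences of more than 1 on the log2 scale in either direction, and that of Kcnk4 in the Dbx1 direction, so these data do not show that the groups were alike. In bulk samples such as these, a smaller number of cells with a transcript and less of it per cell cannot be told apart.

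**Figure D3:**
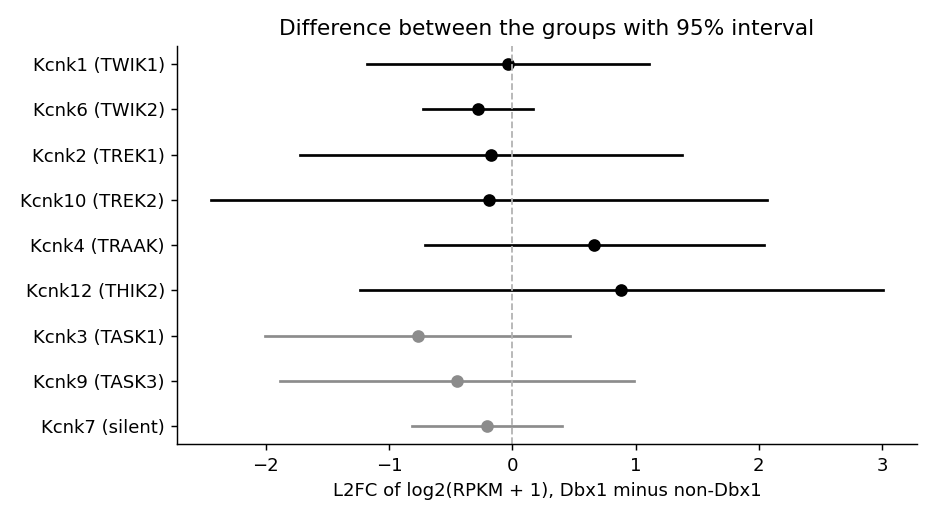
L2FC of log2(RPKM + 1), Dbx1 minus non-Dbx1, for the 6 tested TWIK, TREK and THIK genes (black) and the 3 other tested tandem pore genes (grey). Points are estimates and lines are limma 95% intervals, all of which include 0.

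Group means of RPKM were also compared by an exact permutation test. With 3 samples against 3 its smallest two-sided p is 0.10, reached when the groups do not overlap, as they did not for 10.6% of all genes tested. Among the channel genes the groups overlapped for 6 of 6 tested. The exact p was 0.4 for Kcnk12 and Kcnk6, 0.6 for Kcnk4 and 0.9 for Kcnk1, Kcnk2 and Kcnk10. Leaving out 1 sample separated the groups of 1 gene in 3 cases, those of Kcnk12 without Dbx1 replicate 1, of Kcnk6 without non-Dbx1 replicate 1 and of Kcnk4 without non-Dbx1 replicate 3. Over all genes tested the groups did not overlap for 20.3%, 20.4% and 21.8% with those same samples left out.

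Some members were high and low in the same samples. Kcnk4 and Kcnk1 shared their 3 highest samples, Dbx1 replicates 1 and 3 and non-Dbx1 replicate 3. Kcnk2 and Kcnk12 were both lowest in Dbx1 replicate 1 and non-Dbx1 replicate 2 and both highest in Dbx1 replicate 2. Each of these pairs joins different subfamilies, and each pattern ran across both groups. The pairs were picked after the values were seen, as the highest of 15 correlations between members. Of those 15, 6 were above 0, and 0 passed correction. The 3 tested genes whose log2(RPKM + 1) tracked that of Kcnk4 most closely over the 6 samples were Gusb (Pearson r = 0.997), Rbsn (r = 0.991) and Fam122a (r = 0.989), picked as the highest of 17613 and given as a description.

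**Figure D4:**
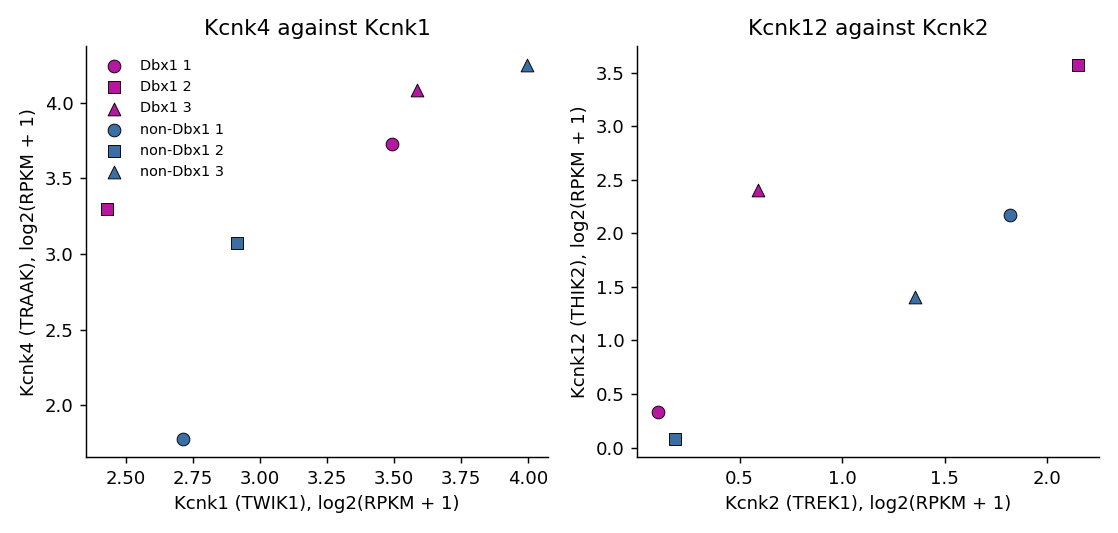
Kcnk4 against Kcnk1 (left) and Kcnk12 against Kcnk2 (right), both axes as log2(RPKM + 1), with 1 point per sample and symbols for the replicates. In the right panel Dbx1 replicate 1 and non-Dbx1 replicate 2 lie near 0 on both axes and Dbx1 replicate 2 is highest on both. The pairs shown were picked as the highest of 15 correlations, of which 0 passed correction.

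Of the 7 other tandem pore channel genes, 4 had reads in at least 1 sample and 3 could be tested, with 0 passing FDR 0.1 in either direction and a median L2FC of −0.45. Kcnk5, Kcnk16 and Kcnk18 were at 0 throughout. Only Kcnk3 and Kcnk9, which encode the acid-sensitive TASK1 and TASK3, had a mean RPKM of at least 1. For Kcnk3, Dbx1 replicates gave an RPKM of 2.74, 10.2 and 14.4, against 18.6, 11.7 and 11.7 for non-Dbx1 replicates. For Kcnk9 the values were 1.25, 9.56 and 6.42 against 8.44, 4.54 and 7.54. Both were lowest in Dbx1 replicate 1, where the summed TASK1 and TASK3 level was 3.99 RPKM against 22.8 for the 7 TWIK, TREK and THIK genes. In non-Dbx1 replicate 1 the order was reversed, at 27.04 against 16.3. The level of Kcnk9 depended about 10-fold on exon length, 1209 bases as recovered and 12300 bases merged. With merged lengths its mean was 0.618 and that of Kcnk3 was 12.5, and the same sums were 3.10 against 19.6 in Dbx1 replicate 1 and 21.02 against 18.98 in non-Dbx1 replicate 1. The groups overlapped for both genes, and the L2FC was −0.77 ± 0.54 for Kcnk3 (limma FDR 0.939) and −0.45 ± 0.63 for Kcnk9 (limma FDR 0.962).

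Proteins that bind, traffic or modify these channels were read from a list of 11. It held the TREK1 partners Akap5 (an anchor for protein kinase A), Map2, Sort1, Copb1 and Pld2, the Popeye proteins Bves, Popdc2 and Popdc3, the Arf6 and Psd pair that recycles TWIK1, and Senp1. Reads were found for all 11 and 10 could be tested, 7 with L2FC above 0 and 3 below, with a median of 0.20 and 0 passing FDR 0.1. The groups did not overlap for 2 of the 10 tested, beside 10.6% of all genes (5.35% with Dbx1 samples higher and 5.24% with non-Dbx1 samples higher). Popdc3, a cyclic AMP-binding membrane protein, had RPKM of 2.03, 1.94 and 7.61 for Dbx1 replicates against 0.376, 1.64 and 0.129 for non-Dbx1 replicates, with an L2FC of 1.41 ± 0.65 (limma FDR 0.912). Pld2, a phospholipase D whose product opens TREK1, had RPKM of 1.60, 2.03 and 0.557 for Dbx1 replicates against 7.38, 2.65 and 7.64 for non-Dbx1 replicates, with an L2FC of −1.48 ± 0.61 (limma FDR 0.912).

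Markers of other cells were present in several samples, and some of these cells are known to carry members of the family. The paper reported glial markers as absent or at minimal levels and concluded that its samples were neurons, not glia. Its list of markers was not compared with the lists used here. Of 9 neuronal markers all were found in the samples, with a summed RPKM of 1483 to 2292 in Dbx1 samples and 1440 to 1907 in non-Dbx1 samples. Astrocytes are known to carry TWIK1 and TREK1. Their 8 markers were all found, with a summed RPKM of 253 to 501 in Dbx1 samples and 294 to 873 in non-Dbx1 samples. Most of that sum was Fabp7, at 216 of 253 in Dbx1 replicate 1 and 812 of 873 in non-Dbx1 replicate 3. Of 10 microglial markers 8 were found, at sums of 5.95 to 46.3 and 31.2 to 50.9, and the defining genes Itgam and Tmem119 were at 0 in all 6 samples, as was THIK1. The 7 oligodendrocyte-lineage markers summed to 16.4 to 73.6 in Dbx1 samples and 46.5 to 388 in non-Dbx1 samples, the 7 vessel markers to 0.120 to 0.682 and 3.08 to 71.6, and the 5 red blood cell markers to 90.3 to 507 and 733 to 14058. The highest oligodendrocyte-lineage and red blood cell sums were both in non-Dbx1 replicate 1, the sample with the lowest Kcnk4, and without it the L2FC of Kcnk4 was 0.04 by limma. The part of these other cells in the levels of the channel genes was not tested.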

How the data were processed

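The authors made complementary DNA with SMART-Seq v4 and libraries with Nextera, aligned reads to mm10 with TopHat2, handled alignments with SAMtools, counted reads per gene name with HTSeq without regard to strand, and deposited 49568 RPKM values for each sample, 1 per gene name, computed with exon lengths from an Ensembl annotation whose release is not given in the sources used here. Values were not scaled between samples. The authors tested counts with DESeq2, and counts were not used here as the main measure. Reads and exon lengths were recovered from the RPKM steps, keeping a length that made the reads whole numbers in all samples. The summed length of distinct exons in GENCODE vM21 was tried first (13832 genes), then the merged length (36 genes). Failing these, the smallest fitting length was taken (13198 genes). The recovered reads came to 99.6% to 99.7% of the reads on genes in each sample. True numbers can differ, and can be multiples of those recovered where the smallest length was taken. Where the merged and the summed exon lengths of GENCODE vM21 differ (15667 genes), the recovered length equalled the sum, which counts overlapping exons repeatedly, for 26.8% and the merged length for 0.23%.

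The test between 3 Dbx1 and 3 non-Dbx1 samples, from separate mice, was limma 3.58.1 (lmFit, trended eBayes) under R 4.3.3. It was run two-sided on log2(RPKM + 1) of genes that were above 0 in 3 or more samples, and p values were adjusted by the Benjamini-Hochberg method (FDR threshold 0.1). The method was tested on simulated data, where it missed many of the changes that had been put in. Exact permutation tests and other values used scipy 1.17.1, pandas 2.3.3 and numpy 2.4.6 in Python 3.11.15. Figures used matplotlib 3.10.9. The members, the lists of other channels, partners and markers and the tests were chosen with earlier results of these data known. Members were all named, other channels where mean RPKM was at least 1, and partners where the groups did not overlap. A further gene first drawn up for the partner list was left out of it and is not reported here. Alternatives were a pseudocount of 0.1, other filters on low values, size factors, quantile normalization, no trend, a replicate block, voom on recovered reads, untransformed RPKM for gene pairs and each sample left out. Merged exon lengths and gene pairs without Kcnk13 were added after seeing the data. Positions came from GENCODE vM21, which held 95.2% of the names.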

Additional observations from a re-analysis of the deposited data

How the results depend on the processing

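With 3 samples a group and levels that vary several-fold among them, the 95% intervals of the L2FC reached 1.14 (Kcnk1) to 2.25 (Kcnk10) to either side for 5 of the 6 tested members, and TWIK2 and THIK1 were limited by depth. The L2FC of the 6 tested members took 82 values under the alternatives, of which 74 kept the sign, and the lowest FDR of any was 0.784. The 8 changes of sign all came from leaving out 1 sample. The L2FC of Kcnk1 then ran from −0.28 to 0.36 (0.33 when Dbx1 replicate 2 was left out and 0.36 when non-Dbx1 replicate 3 was). That of Kcnk2 ran from −0.77 to 0.25 (0.25, 0.0058 and 0.18 without Dbx1 replicates 1 and 3 and non-Dbx1 replicate 1). That of Kcnk10 ran from −1.17 to 0.44 (0.44, 0.16 and 0.39 without Dbx1 replicates 1 and 2 and non-Dbx1 replicate 2). Kcnk4 ran from 0.04 to 1.27, Kcnk12 from 0.15 to 1.77 and Kcnk6 from −0.42 to −0.11, each keeping its sign. Among the other settings, a pseudocount of 0.1 gave −1.28 for Kcnk6, −0.49 for Kcnk2, −0.47 for Kcnk10 and 1.37 for Kcnk12, and voom gave −0.12 for Kcnk1, −0.62 for Kcnk2, −0.34 for Kcnk10 and 1.58 for Kcnk12. Kcnk6 was not tested with a filter at RPKM of 1 or with voom, where it was too low.

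Over all genes, the number higher in Dbx1 samples at FDR 0.1 was 0, and 0 to 1 with a sample left out, the 1 gene being Gm1821 without non-Dbx1 replicate 2. The number higher in non-Dbx1 samples was 1, became 0 with a pseudocount of 0.1, with all genes found in at least 1 sample and with voom, became 3 without the trend, and ran from 0 to 1 with a sample left out, being 1 only without Dbx1 replicate 1. With the replicate block it was 0 as well, and the block left 0 of the 6 members past the threshold. The same-numbered samples' deviations correlated at −0.107, 0.0248 and −0.0522, and those of differently numbered samples at −0.0824 to 0.133. With 3 samples a group this cannot show whether same-numbered samples shared a batch, which the labels do not state. The number of members whose groups did not overlap was 0 and ran from 0 to 1 with a sample left out. The number of gene pairs that differed in level was 9 under both pseudocounts and with untransformed RPKM, 5 over the 15 pairs that leave out Kcnk13, and 0 to 0 with a sample left out, where the smallest possible p is 0.0625.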

Other observations

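Across the 6 samples, log2(RPKM + 1) was correlated between all 15 pairs of the 6 detected members, without regard to group and after the values had been seen. The highest was between Kcnk2 and Kcnk12 (Pearson r = 0.818, exact permutation p = 0.0611, and Spearman rho = 0.771, exact permutation p = 0.103), which fell to r = 0.561 without the 2 samples farthest from the median of Kcnk2. The next was between Kcnk1 and Kcnk4 (r = 0.745, exact permutation p = 0.0681, and rho = 0.829, exact permutation p = 0.0583), with r = 0.935 without the 2 samples farthest from the median of Kcnk1. Over the 15 pairs the adjusted p was 0.510 for both r and 0.771 for both rho, so 0 pairs passed correction. Of the 17613 other tested genes, 1.81% correlated with Kcnk2 at least as highly as Kcnk12 did, and 4.15% with Kcnk1 at least as highly as Kcnk4 did.

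No correlation was resolved between the closely related TREK1 and TREK2 (r = −0.278, exact permutation p = 0.567, adjusted p = 0.946, and rho = 0, exact permutation p = 1). With 6 samples this cannot show that the levels of these genes were unrelated. Kcnk10 was at 0 in Dbx1 replicate 1, where Kcnk2 was also at its lowest, and in non-Dbx1 replicate 3, where Kcnk2 measured 1.56 RPKM.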
